A study of Homo sapiens with 52 samples.

Results

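The WI-38 line consists of normal fibroblasts from human embryonic lung, which divide only a limited number of times. Young WI-38 cells, at a population doubling level (PDL) of 32 to 46, were kept for 24 h in medium with 75 mM KCl, washed with fresh medium and collected 1 day later. These Ca-Sen day 1 cells, at the first sampling of the recovery from KCl, were compared with untreated young cells of the same PDL range. Each group had 2 mRNA-seq libraries, made from independent samples. The genes described are those with a mean normalized count of at least 10 over these 4 libraries, which were 14601 of the 59408 genes listed, while 29524 genes had no read in any of the 4. The lowest mean of a gene taken was 10.004 and the highest mean of a gene left out was 9.9956. Ca-Sen cells collected when KCl was removed (day 0) and 2 days later (day 2) showed what moved before and after day 1. Cells 1 day after 24 h in 0.009% SDS (PMD-Sen, plasma membrane damage) or in 250 nM doxorubicin (DDR-Sen, DNA damage response) gave the same day for the other inducers. No untreated culture was washed and collected beside the day 1 cells, so KCl, the fresh medium and the added time in culture cannot be told apart in the comparison with untreated cells.

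High KCl outside a cell depolarizes its plasma membrane and lets Ca2+ enter, and it also raises the osmolarity of the medium. Ca2+ entry activates kinases and the phosphatase calcineurin, and through transcription factors such as CREB and NFAT it switches on early response genes. Cells under hyperosmotic medium take up or make small organic solutes through transporters and enzymes, among them the aldose reductase AKR1B1, which makes sorbitol, and the inositol transporter SLC5A3. Fibroblasts on the way to senescence leave the cell cycle under CDK inhibitors such as p21 (CDKN1A) and p16 (CDKN2A), lose lamin B1 (LMNB1), and later secrete inflammatory factors and proteases. The study added KCl to ask whether Ca2+ entry alone leads to senescence.

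The 4 libraries held 18971753 and 15258997 counted reads (untreated) and 34773181 and 25430556 (day 1). The 16 Ca-Sen libraries of all days ranged from 20523987 to 51594887 reads, so the untreated libraries were the shallowest of the 18 fitted together. Within a group the libraries are named here as the larger and the smaller, since the recovered reads carry no replicate number. The 2 day 1 libraries differed by more than 2-fold at 238 genes, and the 2 untreated ones at 607. Their median differences on the log2 scale were 0.0957 and 0.142. The mitochondrial share of reads was 2.91% and 2.71% on day 1 against 2.74% and 2.82% in untreated cells. All 12 fibroblast markers passed the limit of 10, with a summed level of 663892 and 634432 normalized counts on day 1 and of 910852 and 722122 in untreated cells. Of the fibroblast markers 6 were called lower on day 1 and 1 higher (median log2 fold change -0.23). Markers of other cell types were partly absent. MYOD1, MYOG, SFTPC, CDH5 and CD3E had no read in the 4 libraries, CDH1 and PTPRC reached at most 2.164 normalized counts, and of the 6 white blood cell markers only CD14 passed the limit. The epithelial list summed to 4837 and 5365 on day 1 against 3860 and 3308, with 2 of its 4 measured genes called higher. Others were measured in both groups, among them KRT19 (1406 and 1002 untreated, 1663 and 1772 on day 1), the endothelial receptor gene TEK (2744 and 2952, then 2384 and 2158), VWF (40.87 and 44.2, then 73.18 and 68.16) and the contractile gene CNN1 (4205 and 3741, then 3533 and 3839). Of the measured endothelial, neuron and muscle markers, 0 of 2, 1 of 4 and 1 of 3 were called, both higher. The part of such cells in the results was not tested, and in bulk RNA fewer cells of a type and less RNA per cell cannot be told apart.

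On day 1 the fibroblasts stood close to untreated cells in most genes and apart from them in a few groups. AKR1B1 (sorbitol synthesis), the metallothionein gene MT2A, the linker histone gene H1-2, 11 of 27 matrix protease and inhibitor genes and 12 of 26 p53 targets were higher. Lower were 23 of 40 DNA replication genes, 28 of 43 mitosis genes, 7 of 13 nuclear lamina genes, 8 of 10 laminins and 10 of 23 collagens. By limma, 3535 of 14601 genes (24.2%) differed from untreated cells at an adjusted p under 0.05, 1614 higher (11.1%) and 1921 lower (13.2%). A change of at least 2-fold was called in 464 genes (3.18%), 266 higher (1.82%) and 198 lower (1.36%), and the median size of a called change was 0.417 on the log2 scale. The share of higher genes among the calls depended on the scaling. It was 45.7% with size factors and 62.0% with library totals, which moved the median of all genes from -0.005 to 0.052 on the log2 scale. Without the smaller day 1 library, 1706 genes were called.

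**Figure D1:**
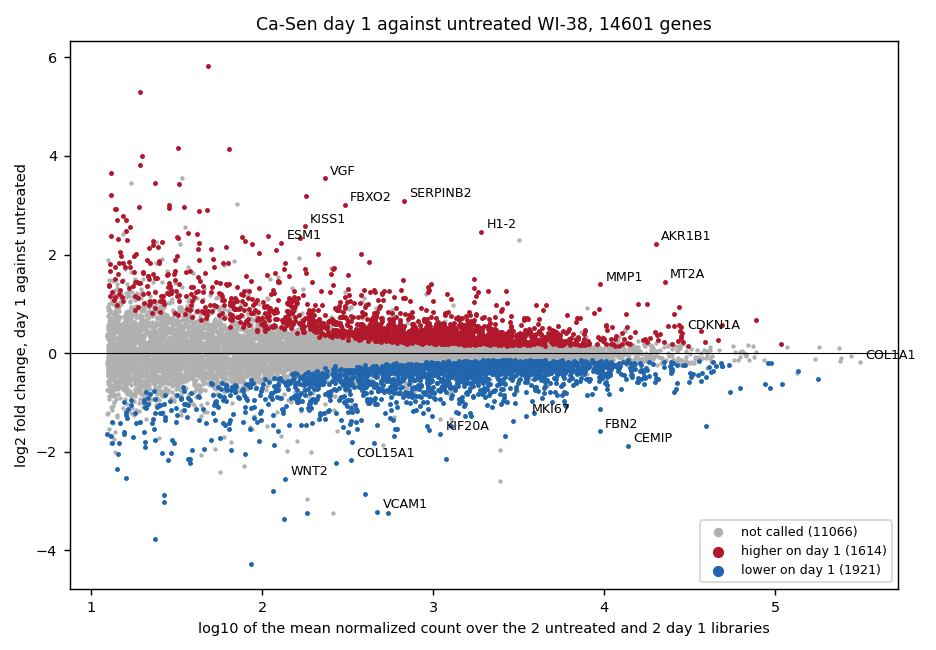
Each of the 14601 points is a gene, with the log10 of its mean normalized count over the 2 untreated and 2 day 1 libraries on the x axis and its log2 fold change on day 1 against untreated on the y axis. Red points (1614) and blue points (1921) were called higher and lower at an adjusted p under 0.05, and grey points were not called, among them COL1A1 at the far right.

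The largest rise among genes with a mean of at least 100 was that of VGF, which codes for a secreted neuropeptide precursor and is a known target of CREB. Its level was 28.76 and 44.2 normalized counts in untreated cells, and 418.8 and 437.1 on day 1. The log2 fold change was 3.55 ± 0.34 (SE, n = 2 and 2, adjusted p = 1.19e-05), and both day 1 libraries lay above every one of the other 16. VGF was low at the end of KCl (16.7 and 20.16), so that it rose after KCl was removed, by 4.47 on the log2 scale between days 0 and 1. The 250 bases before its RefSeq start hold 1 copy of the palindromic cAMP response element TGACGTCA, in capitals here because it is the site of VGF regulation that textbooks describe (GRCh38.p14, chr7:101165570-101165819, minus strand).
VGF: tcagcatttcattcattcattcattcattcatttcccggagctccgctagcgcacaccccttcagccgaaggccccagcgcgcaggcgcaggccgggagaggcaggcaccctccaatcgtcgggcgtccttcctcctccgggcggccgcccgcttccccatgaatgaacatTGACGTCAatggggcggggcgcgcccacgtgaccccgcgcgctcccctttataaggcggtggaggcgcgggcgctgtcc
The motif is present in this window in 2.03% of the 27305 genes with a RefSeq promoter, and in 2.84% of the 176 genes with one that were called at least 2-fold higher on day 1. VGF is thus 1 of 5 such genes, and the motif was no more frequent among those 176 than among all measured genes (3.44% of 10426).

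Other leading rises were in genes of varied function. SERPINB2, an inhibitor of plasminogen activators, stood at 134.7 and 143.7 normalized counts in untreated cells and at 1080 and 1328 on day 1 (log2 fold change 3.10 ± 0.23, adjusted p = 1.87e-06). FBXO2, a ubiquitin ligase adaptor that recognizes glycoproteins, rose by 3.00 ± 0.14 over untreated cells and had been higher still on day 0. KISS1, the kisspeptin precursor, rose by 2.57 ± 0.31. ESM1, the secreted proteoglycan endocan, stood at 56.0 and 34.99 in untreated cells, 204.7 and 220.7 on day 1, and back at 45.69 and 30.9 on day 2. SRGN, the core protein of the proteoglycan serglycin, rose by 2.01 ± 0.20 and CAVIN4, a muscle caveolar protein, by 2.02 ± 0.29. SYTL5 rose by 2.34 ± 0.41. For these 7 genes the day 1 and untreated libraries did not overlap, which is part of how they were chosen. SAMD11 (log2 fold change 1.85, adjusted p = 0.0177) rested on untreated libraries at 90.81 and 324.2, and it lost its call without the larger untreated library (adjusted p = 0.216) and without the smaller day 1 library (0.13). MICA, a ligand of the receptor NKG2D in the MHC region, was called at 3.18, but its level also jumped between replicates elsewhere, as on day 2 with 621.5 and 176.9. It lost its call without the larger untreated (0.0743) or the smaller day 1 library (0.0511).

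Among the largest falls, the adhesion molecule VCAM1 stood at 1061 and 646.5 normalized counts in untreated cells and at 107.4 and 71.41 on day 1 (log2 fold change -3.23 ± 0.50, adjusted p = 0.000432). It was lower still on day 0, at 45.41 and 46.08, and its replicates differed over 4-fold on day 6 (1876 and 398). WNT2, a secreted Wnt ligand of lung mesenchyme, fell by 2.55 ± 0.39, and TOX, a chromatin-binding factor, fell by 2.24 ± 0.22. COL15A1, a basement membrane collagen, fell by 2.18 ± 0.36. CEMIP, which binds and breaks down hyaluronan, went from 22471 and 20903 to 6136 and 5655, a fall of 1.88 ± 0.22. FGL2, a secreted immune regulator of the fibrinogen family, fell by 1.82 ± 0.30 and SLC7A14 by 1.81 ± 0.35. The untreated libraries of FGL2 differed, at 411.7 and 1022, and without the smaller one its fold change was -1.17 on the log2 scale. In these 7 genes day 0 lay below untreated cells too, and the day 1 and untreated libraries did not overlap, again by the rule of choice. RN7SL1, the RNA of the signal recognition particle, which has no poly(A) tail, fell by 2.16 ± 0.21, from 1869 and 2022 to 393.1 and 481.5, and how RNA was selected was not given in the sources used here. U2AF1, a splicing factor with a near-identical copy in the assembly, was called at -3.24 ± 0.44, and reads may be split between the copies. RNF187 and GTF2H1 were called too, at -3.24 and -2.86, but their replicates, like those of VCAM1, disagreed by more than 4-fold in at least 1 of the 9 groups. On day 1 GTF2H1 stood at 33.47 and 190.4, and it lost its call without the smaller untreated (adjusted p = 0.116) or the larger day 1 library (0.162).

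In all, 280 of the 14601 genes had replicates that differed by more than 4-fold in at least 1 of the 9 groups. Left out of the fit, they changed the count of calls from 3535 to 3620 of 14321.

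The 31 lists of genes described next were chosen with earlier results of these data known, and the counts in them are read against the share of all genes called, 11.1% higher and 13.2% lower. By number, mitosis had the most members called in 1 direction, 28 of 43 lower and none higher. Its median log2 fold change was -0.79 against -0.005 for all genes. DNA replication followed with 23 of 40 lower and none higher (median -0.72). By share the laminins came first, with 8 of 10 lower and 2 higher.

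**Figure D2:**
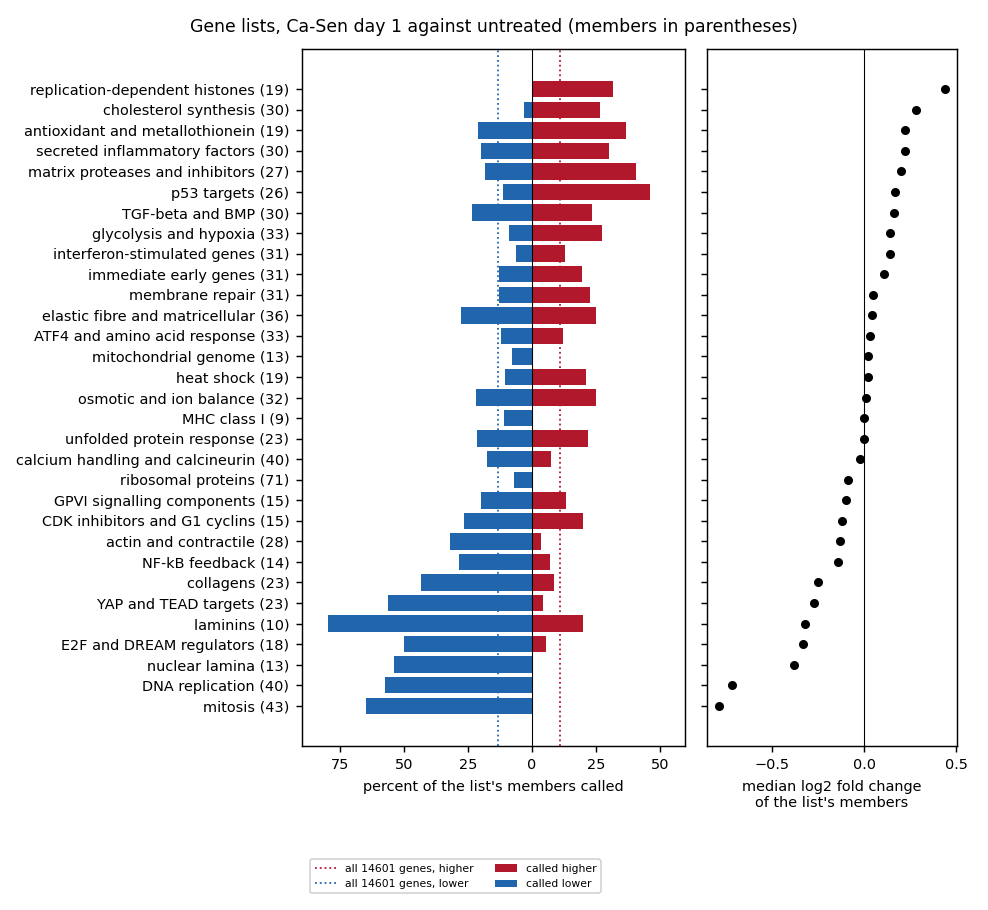
Left, the percent of each list's measured members (number in parentheses) that was called higher (red, to the right) or lower (blue, to the left) on day 1 against untreated, with dotted lines at the share of all 14601 genes. Right, the median log2 fold change of the list's members, from -0.79 for mitosis to 0.44 for replication-dependent histones.

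In the lists of mitosis, DNA replication, and E2F and DREAM regulators, the called genes were lower with 1 exception, in the last list. Of the mitosis genes 15 of 43 did not pass, and of the replication genes 17 of 40. MKI67, the proliferation marker Ki-67, stood at 5553 and 4332 normalized counts in untreated cells and at 2119 and 1923 on day 1. That is a fall of 1.28 ± 0.29 on the log2 scale (adjusted p = 0.0055), which lost its call narrowly without the larger untreated library (adjusted p = 0.0511) or the smaller day 1 library (0.0503). KIF20A, a kinesin of cytokinesis, went from 1672 and 1645 to 509.9 and 550.7, and fell by 1.64 ± 0.29. The survivin gene BIRC5 fell by 1.22 ± 0.24. Of the replication genes, FAM111B fell by 1.61 ± 0.24 and the thymidine kinase TK1 by 1.28 ± 0.18. Among regulators of the cell cycle, 9 of 18 E2F and DREAM genes were called lower and 1 higher. The forkhead factor FOXM1 fell by 1.19 ± 0.14 and MYBL2 by 1.16 ± 0.24. E2F8 fell by 1.76 ± 0.44 at a low level (21.8 and 21.64 on day 1) and lost its call without the larger untreated (0.0886) or the smaller day 1 library (0.059).

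The mitotic genes share a promoter feature that the list was not chosen by. The cell cycle homology region (TTTGAA or TTTAAA, both strands, the second a palindrome) is a site bound by the DREAM and MuvB complexes in G2/M genes, often downstream of a CCAAT box. In the 250 bases before the start, 28 of 38 mitosis genes with a RefSeq promoter (73.7%) held it, against 25.5% of all 27305 genes with one, and 31 of the 38 (81.6%) held CCAAT, against 37.0%. Of 35 DNA replication genes, 5 held the first motif (14.3%) and 21 the second. Among the 125 genes called at least 2-fold lower that have a promoter in the table, 27.2% held the first and 41.6% the second. KIF20A is shown because it fell most of the mitosis list. Its window (GRCh38.p14, chr5:138178862-138179111, plus strand) holds 2 CCAAT boxes, as ATTGG on the printed strand, and 1 TTTAAA, all in capitals.
KIF20A: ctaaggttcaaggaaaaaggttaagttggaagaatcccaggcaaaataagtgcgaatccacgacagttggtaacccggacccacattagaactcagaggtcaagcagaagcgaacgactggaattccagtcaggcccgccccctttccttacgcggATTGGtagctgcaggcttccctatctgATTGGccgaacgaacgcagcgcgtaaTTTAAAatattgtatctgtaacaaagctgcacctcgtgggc
A match is a run of letters in the window, and the binding of a factor was not measured.

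Of 15 CDK inhibitors and G1 cyclins, 3 were called higher and 4 lower. CDKN1A (p21) was already abundant in untreated cells, at 23581 and 25388 normalized counts, and stood at 31578 and 33761 on day 1, a rise of 0.42 ± 0.07 (adjusted p = 0.000554). CDKN2A rose by 0.40 ± 0.09, from 675.0 and 670.4 to 859.4 and 920.7, and lost its call without the smaller day 1 library (adjusted p = 0.0563). CDKN2B, the neighbouring INK4 inhibitor p15, had the largest rise of the list, from 364.8 and 281.8 to 741.9 and 804.9 (1.27 ± 0.13, adjusted p = 2.52e-05). Cyclin E2 (CCNE2) and CDKN2C (p18) were called lower, CCNE2 at -1.46 and CDKN2C from 623.6 and 521.2 to 279.5 and 290.0. CCNE2 lost its call without the larger untreated (0.094) or the smaller day 1 library (0.0509), and CDKN2C without the larger untreated (0.0818), the larger day 1 (0.0615) or the smaller day 1 library (0.0617).

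Of 26 p53 targets, 12 were called higher and 3 lower (median 0.17). TP53I3, an oxidoreductase of the p53 response, stood at 1226 and 1234 in untreated cells and at 2784 and 3106 on day 1 (1.26 ± 0.07, adjusted p = 7.72e-08). GDF15, a secreted stress factor of the TGF-beta family, went from 1143 and 1042 to 2450 and 2697 (1.24 ± 0.06, adjusted p = 5.5e-08). Both rises were many times their standard errors, and no day 1 library overlapped an untreated one. PLK2 went the other way and fell by 0.74 ± 0.14. TP53I3 was higher on day 1 than in all other 16 libraries, whereas GDF15 peaked on day 0 at 5972 and 5884.

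Of 13 nuclear lamina genes, 7 were called lower and none higher. LMNB1 fell from 1536 and 1300 normalized counts to 495.1 and 468.5 (-1.55 ± 0.25, adjusted p = 0.000586), SYNE2 by 0.83 ± 0.16 and TMPO by 0.72 ± 0.18. The call of TMPO failed without the larger untreated (adjusted p = 0.0841), the larger day 1 (0.0573) or the smaller day 1 library (0.0581). LMNB1 had been lower on day 0, at 135.7 and 191. From days 1 to 16 it lay between 180.3 and 726.8, under both untreated libraries throughout.

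Histone genes called on day 1 were higher, in contrast to the called replication genes. Of 19 measured replication-dependent histone genes, 6 were called higher, none lower and 13 did not pass (median 0.44). H1-2, a linker histone, stood at 508.5 and 666.7 normalized counts in untreated cells, 1269 and 1268 on day 0, 2957 and 3478 on day 1, and 1669 and 1373 on day 2. Its rise over untreated was 2.46 ± 0.12 (adjusted p = 3.6e-08), and day 1 was the highest group of all 9. H4C12, at 10.59 and 1.842 in untreated cells and 19.46 and 27.05 on day 1, owed its mean over 10 to day 1, and its replicates differed over 4-fold. It lost its call without the smaller untreated (adjusted p = 0.196) or the smaller day 1 library (0.128). Most mRNAs of these histones end in a stem loop without a poly(A) tail, and how they were captured was not given in the sources used here.

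The genes of osmotic solutes differed in how far they had come back 1 day after KCl. AKR1B1 stood at 5918 and 8439 normalized counts in untreated cells, at 97144 and 101074 on day 0, at 30904 and 34818 on day 1 and at 12676 and 11314 on day 2. On day 1 it was thus 4.64-fold above untreated (log2 2.21 ± 0.12, adjusted p = 5.5e-08) and had fallen by 1.59 ± 0.12 from day 0. SLC5A3 reached 14809 and 16490 on day 0 and was back at 1671 and 1611 on day 1, against 1762 and 1518 in untreated cells, a difference of 0.01 ± 0.14 (adjusted p = 0.986). MRPS6, whose gene overlaps SLC5A3 so that reads may be shared between the 2, fell between days 0 and 1 by 3.31, as SLC5A3 did by 3.25. Of the 32 measured osmotic and ion balance genes, 8 were called higher and 7 lower than untreated. The taurine transporter SLC6A6 was called lower at -0.64, and the sodium pump subunit ATP1B3 higher at 0.62, both chosen here outside the rule for named genes. KCNJ2, an inward rectifier potassium channel, fell from 897.5 and 937.5 to 291.1 and 336.5 (-1.55 ± 0.11, adjusted p = 1.61e-06) and returned to 716.7 and 814.2 on day 2. Both day 1 libraries of KCNJ2 lay below all other 16. The heat shock protein CRYAB, which is also induced by hyperosmotic medium, rose by 1.34 ± 0.21.

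Metallothioneins, small cysteine-rich proteins that bind zinc and copper, were called higher in the 4 of 6 listed genes that passed the limit of 10 (MT1E, MT1G, MT1X and MT2A), which MT1G passed through its day 1 libraries alone. MT2A went from 10433 and 13950 normalized counts in untreated cells, and 3880 and 5039 on day 0, to 31641 and 34204 on day 1 (1.45 ± 0.15 against untreated, adjusted p = 2.59e-05). MT1X went from 28.76 and 25.79 to 97.31 and 101.7 (1.83 ± 0.24). MT1G had no more than 3.027 in untreated cells, that is 2 reads or fewer, and stood at 21.8 and 27.05 on day 1. Its call failed without the smaller untreated (adjusted p = 0.0794) or the smaller day 1 library (0.069). In all 3, both day 1 libraries were above the other 16, and by day 2 each had dropped, MT2A by 1.08 on the log2 scale. The genes are near-identical neighbours, so reads may be shared among them. Metallothionein promoters carry metal response elements, bound by MTF1, whose core is TGCNCNC. It is a short motif that 14475 of the 27305 genes with a RefSeq promoter hold at least once. The MT2A window (GRCh38.p14, chr16:56608334-56608583, plus strand) holds 7 matches and the MT1X window (chr16:56682220-56682469, plus strand) 4, on both strands together and in capitals, and both are printed to show how the copies are spaced.
MT2A: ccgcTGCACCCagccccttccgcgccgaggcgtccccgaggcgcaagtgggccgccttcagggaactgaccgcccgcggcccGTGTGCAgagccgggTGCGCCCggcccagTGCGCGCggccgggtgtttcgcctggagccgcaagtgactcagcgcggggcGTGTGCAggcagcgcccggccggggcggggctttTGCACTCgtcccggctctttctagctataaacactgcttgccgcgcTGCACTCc
MT1X: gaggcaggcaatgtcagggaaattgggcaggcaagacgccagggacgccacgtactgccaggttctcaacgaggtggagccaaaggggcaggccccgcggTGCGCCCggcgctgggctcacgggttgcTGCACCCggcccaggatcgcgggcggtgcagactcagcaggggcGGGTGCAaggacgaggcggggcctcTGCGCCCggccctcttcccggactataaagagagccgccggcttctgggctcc

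**Figure D3:**
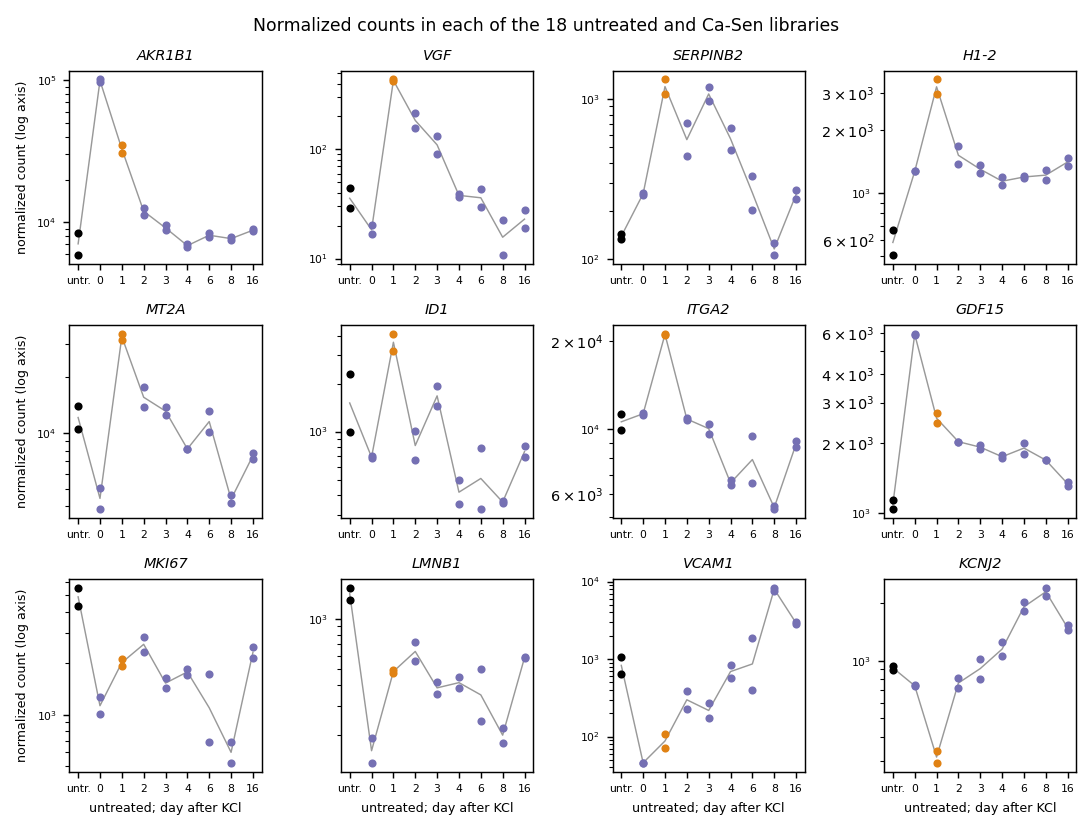
Normalized counts on a log axis for 12 genes in both libraries (points) of untreated cells (black) and of Ca-Sen days 0 to 16, with day 1 in orange and a grey line through the group means. AKR1B1 and GDF15 are highest on day 0, VGF, H1-2, MT2A, ID1 and ITGA2 on day 1, and KCNJ2 is lowest on day 1.

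Calcium genes as a list moved little. Of 40 genes of Ca2+ handling and calcineurin, 3 were called higher and 7 lower (median -0.02). RCAN1, a calcineurin inhibitor that calcineurin itself induces, stood at 3622 and 4017 in untreated cells and at 3507 and 3671 on day 1 (-0.09 ± 0.13, adjusted p = 0.665). The Ca2+ channel gene CACNA1G was called at 1.27 from low levels of 16.65 and 16.58 to 42.04 and 41.11, a call that failed without any 1 of the 4 libraries (adjusted p from 0.123 to 0.161). Of 31 immediate early genes, 6 were called higher and 4 lower. The growth factor antagonist SPRY1 fell by 0.86 ± 0.13, while EGR3 (0.78 ± 0.41, adjusted p = 0.19) and DUSP2 (1.43 ± 0.55, adjusted p = 0.0718) did not pass.

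Among matrix genes, more proteases were called higher and more structural chains lower. Of 27 proteases and inhibitors, 11 were called higher and 5 lower. The collagenase MMP1 stood at 3988 and 6704 normalized counts in untreated cells and at 12719 and 14531 on day 1 (1.39 ± 0.20, adjusted p = 0.000251), and stromelysin MMP3 rose by 1.31 ± 0.23, or by 0.80 without the larger untreated library. Of 23 collagens, 10 were lower and 2 higher. COL18A1 fell by 1.21 ± 0.11 and COL6A2 by 0.80 ± 0.19, the second of which lost its call without the larger untreated (adjusted p = 0.0841) or the smaller day 1 library (0.0609). The most abundant chain, COL1A1, stood at 300954 and 284591 on day 1 against 376715 and 294449, and did not pass (-0.19, adjusted p = 0.302). All 10 measured laminins were called, 8 lower and 2 higher. LAMA5 fell by 1.06 ± 0.17. LAMB3 was among those called higher, at 0.65 ± 0.11. Of 36 elastic fibre and matricellular genes, 9 were higher and 10 lower. FBN2, a microfibril protein, fell from 14931 and 13322 to 4840 and 4536 (-1.59 ± 0.13), MFAP4 rose by 0.86 ± 0.10, and ASPN went from 4.541 and 1.842 to 35.03 and 19.47, so that it passed the limit of 10 through its day 1 libraries alone.

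Of 23 YAP and TEAD targets, 13 were called lower and 1 higher (median -0.27). TGFB2 fell by 0.99 ± 0.09 and the kinase NUAK2 by 0.82 ± 0.10. Of 28 actin and contractile genes, 9 were lower and 1 higher, with LMOD1 at -0.60 ± 0.09, MYLK at -0.56 ± 0.08 and MYH10 at -0.54 ± 0.07. The TGF-beta and BMP list split, with 7 of 30 higher and 7 lower. ID1, an early BMP target, stood at 997.4 and 2288 in untreated cells and at 3202 and 4119 on day 1, and SMAD7, an inhibitory SMAD, at 432.9 and 919.1 and then at 1269 and 1375. Their calls (1.26, adjusted p = 0.0245, and 1.06, adjusted p = 0.0169) rested on untreated libraries that differed by more than 2-fold. Both failed without the larger untreated library (0.261 and 0.211), the larger day 1 library (0.0534 and 0.0575) or the smaller day 1 library (0.163 and 0.104). BMP4 fell by 1.16 ± 0.29, and lost its call without the larger untreated (0.104) or the larger day 1 library (0.0583).

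Secreted inflammatory factors did not move as 1 block. Of 30 measured, 9 were called higher and 6 lower. IL6 stood at 69.62 and 108.7 in untreated cells and at 46.71 and 53.01 on day 1 (-0.79 ± 0.24, adjusted p = 0.0249), and lost its call without the smaller untreated (adjusted p = 0.219), the larger day 1 (0.125) or the smaller day 1 library (0.0734). CCL2, a monocyte chemokine, fell from 717.4 and 1068 to 320.7 and 284.5 (-1.53 ± 0.27, adjusted p = 0.00107). CCL26 went from 6.054 and 1.842 to 40.48 and 28.13, so that it passed the limit of 10 through day 1 alone, and it was higher on day 0. CXCL5 was called at 2.11 ± 0.50, without overlap, but lost its call without the larger untreated (0.0856) or the smaller day 1 library (0.061). CXCL1, at 4.541 and 44.2 in the untreated libraries, did not pass. Of 14 NF-kB genes, 4 were lower and 1 higher, and ICAM1 fell by 1.01 ± 0.21.

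The stress lists were mixed. Cholesterol synthesis had 8 of 30 genes higher and 1 lower (13 higher with library totals), led by the sterol reductase TM7SF2, which was 2.46-fold higher. Without the smaller untreated library, TM7SF2 rose by 0.82 on the log2 scale. Glycolysis and hypoxia had 9 of 33 higher and 3 lower (14 higher with library totals), with ALDOC at 1.58 ± 0.18 and the vasodilator peptide gene ADM at -0.97 ± 0.10. ATF4 and amino acid response genes were close to the share of all genes, 4 of 33 in each direction, with VLDLR at -0.82 ± 0.15 and NUPR1 at 0.71 ± 0.13. Unfolded protein response genes had 5 of 23 in each direction, and the abundant chaperones HSP90B1 and CALR fell by 0.49 ± 0.07 and 0.38 ± 0.06. Heat shock genes had 4 of 19 higher and 2 lower. Interferon-stimulated genes had 4 of 31 higher and 2 lower, and of 9 MHC class I genes 1 was lower and none higher. Ribosomal protein genes had 5 of 71 lower and none higher (1 in each direction with library totals). Of 13 mitochondrial genes, MT-CYB alone was called, at -0.27 ± 0.06, and not without the smaller day 1 library (0.0571).

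Membrane repair genes, which include ESCRT-III subunits and annexins, had 7 of 31 higher and 4 lower. CHMP4B, an ESCRT-III subunit, stood at 3604 and 3623 in untreated cells and at 3447 and 3630 on day 1 (-0.03 ± 0.05, adjusted p = 0.719). CHMP3 fell by 0.39 ± 0.06. DYSF, the membrane repair protein dysferlin, rose from 13.62 and 22.1 to 61.5 and 54.1 (1.68 ± 0.37), and lost its call narrowly without the larger untreated library (0.0515). Of 15 measured components of glycoprotein VI signalling, a platelet collagen receptor pathway, 2 were higher and 3 lower. The receptor gene GP6 itself had no read in the 4 libraries. ITGA2, the collagen-binding integrin subunit alpha 2, stood at 9962 and 11265 in untreated cells and at 21185 and 20922 on day 1 (0.99 ± 0.12, adjusted p = 4.8e-05), above all other 16 libraries. PRKCD rose by 0.48 ± 0.09. RASGRP1 was called lower (-1.77 ± 0.41) from low levels, 56.0 and 20.26 to 7.785 and 10.82, and not without the larger untreated (0.0805) or the larger day 1 library (0.052).

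Within the Ca-Sen series, day 1 levels lay at an extreme for some genes. At 875 genes (5.99%) both day 1 libraries lay above all other 16 untreated and Ca-Sen libraries, and at 799 (5.47%) below them. For the neighbouring day 2 these counts were 59 and 83. Day 0, with 3600 and 3634, and day 8, with 1612 and 1709, stood further apart than day 1. The limit on the mean count was set on untreated and day 1 libraries alone. Genes high on another Ca-Sen day alone could thus be left out, whereas genes high on day 1 alone were kept. How much this favoured day 1 over day 2 in the number of genes above was not tested. Besides VGF, H1-2, MT2A, MT1X and ITGA2, the genes above on day 1 included KISS1, ESM1, TP53I3, MMP1, MMP3, ID1, ALDOC and PRKCD. Those below included KCNJ2, FBN2, COL18A1, LAMA5, TGFB2, BMP4, PLK2 and ADM. These counts describe an order of the 18 libraries and carry no test. PMD-Sen and DDR-Sen day 1 were not part of this order, and PMD-Sen reached further at some of the genes. There ITGA2 (23608 and 23379), ID1 (5508 and 5182), MMP3 (4645 and 3798), ESM1 (279.6 and 633.3) and PRKCD (1255 and 1321) lay above Ca-Sen day 1. FBN2 (2960 and 2845), TGFB2 (165.9 and 124.6), BMP4 (330.3 and 242.1) and PLK2 (2650 and 2746) lay below it. At LAMA5 and ADM the libraries of PMD-Sen and Ca-Sen day 1 overlapped.

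**Figure D4:**
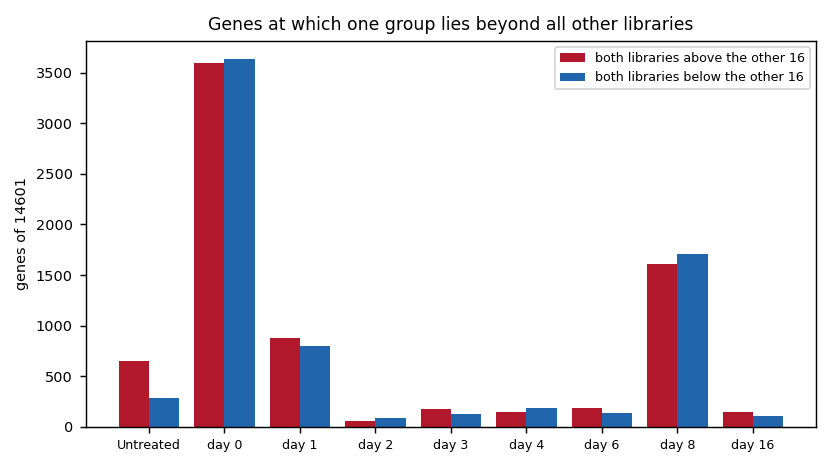
Number of the 14601 genes at which both libraries of a group lay above (red) or below (blue) the other 16 libraries, for untreated cells and each Ca-Sen day. Day 0 has the most genes in both directions, day 8 the next and day 1 the third most, with 875 and 799. The limit on the mean count kept genes high on day 1 alone and could leave out genes high on another Ca-Sen day alone.

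The comparison of day 1 with day 0, which uses no untreated library, showed what changed in the first day without KCl. It was far larger. By limma, 9537 of 14601 genes (65.3%) were called, 5043 higher (34.5%) and 4494 lower (30.8%), and 3055 by at least 2-fold (20.9%), 1803 higher (12.3%) and 1252 lower (8.57%). Genes were kept by their mean count in untreated and day 1 libraries alone. Those high on day 0 alone could thus be left out, whereas those high on day 1 alone stayed in. With every gene with a read tested, 5018 were called higher and 5230 lower. The share of higher genes among the calls was then 49.0%, against 52.9%. The counts higher and lower can therefore not be weighed against each other. The same limit applies to the lists below. The largest rises were of GMNC (4.76), VGF (4.47), OSBPL7 (4.14), GDAP1 (3.83) and CORO1A (3.82), all on the log2 scale. GMNC, a geminin family protein of multiciliated cells, stood at 258.8 and 362.8 in untreated cells, at 6.263 and 14.4 on day 0 and at 273.2 and 297.5 on day 1, which overlaps the untreated range. CORO1A, an actin-binding coronin, went from 14.09 and 18.24 to 207.1 and 278.1. Among the genes kept, the largest falls were of AKR1C1 (-3.67), AKR1C2 (-3.44), PRSS35 (-3.42), MRPS6 (-3.31) and SLC5A3 (-3.25). AKR1C1, an aldo-keto reductase that is a target of NRF2, stood at 10513 and 10122 on day 0 and at 735.6 and 891.5 on day 1. AKR1C1 and AKR1C2 are near-identical paralogs, so reads may be shared between them. Against untreated cells on day 1 they were called at 0.37 and 0.66, and these calls failed without the smaller untreated library (adjusted p = 0.0614 and 0.0527) or the smaller day 1 library (0.327 and 0.102), and for AKR1C1 also without the larger untreated library (0.186).

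Several lists moved in that day, read against 34.5% higher and 30.8% lower of all genes. Of 40 DNA replication genes, 31 were higher on day 1 than on day 0 and none lower (median 0.95, against 0.026 for all genes). Of 43 mitosis genes, 26 were higher and 2 lower (0.84). LMNB1 rose by 1.57 ± 0.25 and MKI67 by 0.84 ± 0.29. MKI67 and LMNB1 thus stood on day 1 above day 0 and below untreated cells, whereas KIF20A did not pass between days 0 and 1 (-0.11, adjusted p = 0.763). Of 33 ATF4 genes, 21 were lower than on day 0 and 6 higher (median -0.80), and of 32 osmotic and ion balance genes 20 were lower and 7 higher (-0.54). Heat shock genes were lower in 13 of 19 and higher in 5. Actin and contractile genes were higher in 19 of 28 and lower in 3, with LMOD1 at 1.63 ± 0.09. Among p53 targets 13 of 26 were lower, GDF15 by 1.21, and 7 higher, TP53I3 by 2.00. Immediate early genes went both ways, 12 higher and 13 lower of 31. EGR3, a transcription factor of the EGR family, rose from 1.044 and 2.88 to 42.04 and 46.52 (4.00, adjusted p = 6.73e-07). FOS and ARC, chosen here after their values were seen, fell by 2.70 and 4.35. Their day 0 replicates differed widely, 103.3 and 507.8 for FOS and 73.07 and 1543 for ARC.

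From day 1 to day 2 the change was smaller. By limma, 1965 genes were called (13.5%), 1053 higher (7.21%) and 912 lower (6.25%), and 210 by at least 2-fold (1.44%), 80 higher (0.548%) and 130 lower (0.89%). Genes high on day 2 alone could be left out by the limit of 10, whereas genes high on day 1 alone were kept. Leaving out 1 of the 4 libraries lowered the count to 1075 (larger day 1), 710 (smaller day 1), 1164 (larger day 2) or 709 (smaller day 2). The largest rises were of VCAM1 (1.75), GDF5 (1.71), SLC7A14 (1.62), ADAMTS19 (1.51) and LRRN4CL (1.47). ADAMTS19, a metalloprotease, stood at 688.9 and 645.9 on day 1 and at 1736 and 2082 on day 2, at about the untreated level of 1840 and 1904. The largest falls were of SAMD11 (-3.27), MLLT6 (-2.91), ESM1 (-2.47), CXCL8 (-2.40) and LINC02593 (-2.33). Of these 10 genes, VCAM1, SLC7A14, MLLT6, CXCL8 and LINC02593 lost the call without at least 1 library, among them the smaller day 1 library (adjusted p = 0.22, 0.0587, 0.0685, 0.119 and 0.069). The same held without the smaller day 2 library (0.237, 0.079, 0.0868, 0.0909 and 0.159). Without the larger day 1 library VCAM1 (0.0653), MLLT6 (0.131), CXCL8 (0.0676) and LINC02593 (0.0938) failed, and without the larger day 2 library MLLT6 (0.103) and CXCL8 (0.0851). CXCL8 codes for interleukin-8. It stood at 147.1 and 175.3 on day 1 and at 28.55 and 30.9 on day 2, but at 36.32 and 248.6 in the untreated libraries.

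Lists with more genes lower than higher on day 2 included the 4 described here, read against 7.21% higher and 6.25% lower of all genes. The TGF-beta and BMP list, which was split on day 1, had 13 of 30 lower on day 2 and 6 higher, with ID1 at -2.15 ± 0.38 and SMAD7 at -1.64. Antioxidant and metallothionein genes had 11 of 19 lower and 1 higher. Matrix proteases and inhibitors had 11 of 27 lower and 4 higher, with SERPINB2 at -1.10 ± 0.23 and MMP1 at -0.67. Secreted inflammatory factors had 10 of 30 lower and 1 higher (median -0.45). AKR1B1 fell by 1.45 ± 0.12, H1-2 by 1.08 ± 0.12, ITGA2 by 0.96 ± 0.12 and CDKN2B by 0.93. The replication and mitosis lists each had 1 gene called higher and none lower, so most of their members were not called between days 1 and 2. CDKN1A (32861 and 32188 on day 2, -0.01) and CDKN2A (918.5 and 937.8, 0.06) were not called either.

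The same day after SDS was fitted together with these libraries for the 14335 genes whose reads could be recovered in PMD-Sen day 1, which left out 266, mostly abundant ones such as MT2A, MMP1 and CDKN1A. By limma, 3707 genes (25.9%) differed between Ca-Sen and PMD-Sen on day 1, 1820 higher in Ca-Sen (12.7%) and 1887 lower (13.2%). A change of at least 2-fold was called in 522 genes (3.64%), 400 higher (2.79%) and 122 lower (0.851%). The limit on the mean count was set on untreated and Ca-Sen day 1 libraries alone. Genes high in PMD-Sen alone could thus be left out, whereas genes high in Ca-Sen day 1 alone were kept. The counts higher and lower can therefore not be weighed against each other. The same limit applies to the lists compared below. VGF stood at 418.8 and 437.1 in Ca-Sen and at 95.25 and 83.1 in PMD-Sen (2.25 ± 0.33, adjusted p = 0.000137). KISS1, SRGN and FBXO2 were also higher in Ca-Sen, by 2.65, 2.87 and 2.14 on the log2 scale. VCAM1, low in both, was higher in Ca-Sen (13.83 and 7.163 in PMD-Sen, 3.01 ± 0.51). AKR1B1 was high in both, with 17388 and 18680 in PMD-Sen, and higher in Ca-Sen by 0.86 ± 0.12. By contrast SERPINB2 (1523 and 1864 in PMD-Sen, -0.49 ± 0.23, adjusted p = 0.129) and ESM1 (-0.98, adjusted p = 0.0952) did not pass. MMP3 was lower in Ca-Sen by 0.79 ± 0.23.

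Several matrix, contractile and stress lists had more genes higher in Ca-Sen than in PMD-Sen. Of 26 elastic fibre and matricellular genes tested here, 19 were higher in Ca-Sen and none lower, with MFAP4 at 1.37 ± 0.13. ASPN (2.93) is 1 of the 19, but it passed the limit of 10 through its Ca-Sen day 1 libraries alone and so lends no support. Of 33 ATF4 and amino acid response genes, 19 were higher and 1 lower (median 0.57), and of 25 p53 targets 16 were higher and none lower (median 0.35), with GDF15 at 977.8 and 1192 in PMD-Sen and higher in Ca-Sen by 1.25 ± 0.08. Actin and contractile genes had 10 of 14 higher and 1 lower (median 0.50). Interferon-stimulated genes had 10 of 31 higher and 1 lower. BST2 (2.23) is 1 of the 10, but it owed its mean over 10 to Ca-Sen day 1 and so lends no support. It stood at 10.59 and 3.684 in untreated cells and at 16.35 and 22.72 on Ca-Sen day 1. Collagens had 9 of 14 higher and 2 lower, and laminins none of 8 higher and 2 lower. Markers of other cell types moved with these lists, and their part in the result was not tested. All 4 measured epithelial markers (median 1.06) and all 3 muscle markers (median 2.83) were higher in Ca-Sen. So were 3 of 5 fibroblast markers tested, with 1 lower. The muscle marker ACTC1 stood at 6.054 and 16.58 in untreated cells and at 40.48 and 41.11 on Ca-Sen day 1. On the authors' scale, where the limit of 10 was set, it passed through Ca-Sen day 1, so it lends no support. Of 43 mitosis genes 4 were called, all lower in Ca-Sen. MKI67 (-0.32 ± 0.29, adjusted p = 0.459), LMNB1 (-0.18 ± 0.24, adjusted p = 0.624), KIF20A (-0.09 ± 0.29, adjusted p = 0.858) and CDKN2A (-0.05 ± 0.09, adjusted p = 0.752) did not pass, which does not show that they were equal.

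For DDR-Sen day 1 only the mean of both libraries could be recovered, so its values stand beside those of Ca-Sen without a test. MKI67 had a mean of 23.03 normalized counts there, KIF20A of 16.4 and LMNB1 of 50.43, far under the Ca-Sen day 1 libraries of each gene. CDKN1A had a mean of 77753 and GDF15 of 3783. AKR1B1, at 7791, lay between the 2 untreated libraries, and VGF stood at 43.25. KCNJ2, low on Ca-Sen day 1 and also on PMD-Sen day 1 (345.7 and 411.2), had a mean of 1131. Other genes named above had DDR-Sen means near their Ca-Sen day 1 libraries, so these levels were not particular to KCl. Among them were TP53I3 (2791), MMP1 (12317), MMP3 (2186), ITGA2 (19075), ID1 (3767), SMAD7 (1336), TGFB2 (487.6) and ADM (2387). H1-2 had a mean of 2453, under the Ca-Sen day 1 libraries and above the untreated ones.

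**Figure D5:**
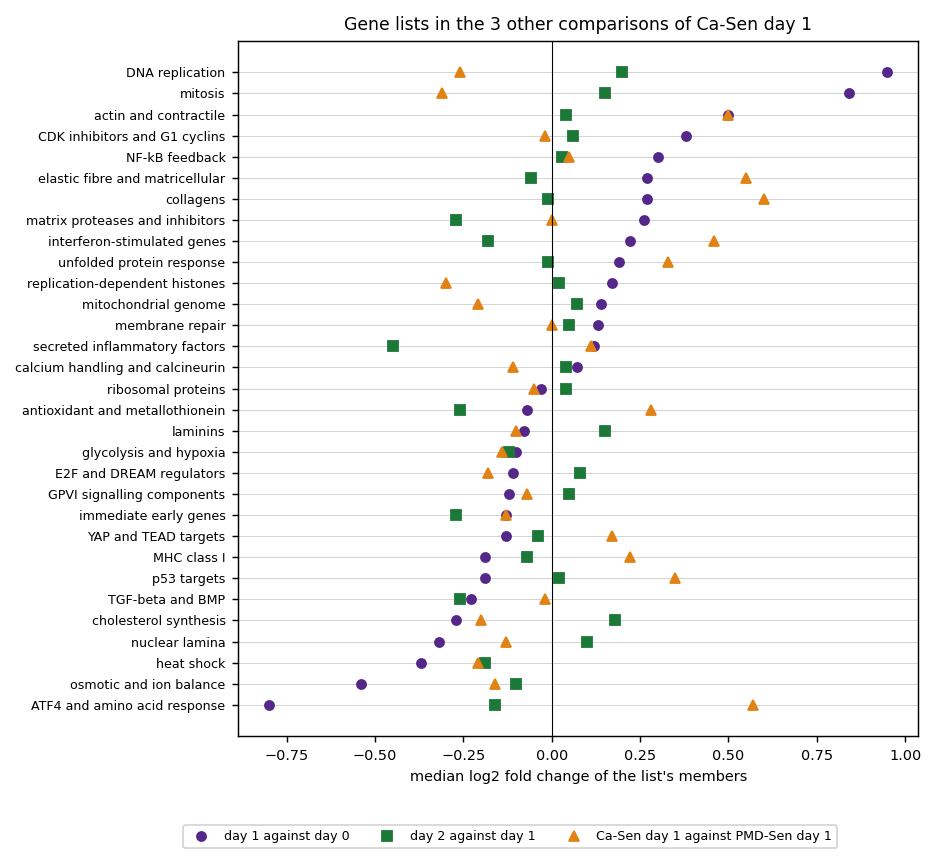
Median log2 fold change of each list's members (x axis) for day 1 against day 0 (circles), day 2 against day 1 (squares) and Ca-Sen day 1 against PMD-Sen day 1 (triangles), with lists ordered by the first. DNA replication (0.95) and mitosis (0.84) rose most after day 0 and the ATF4 list fell most (-0.80), while the ATF4 list was higher in Ca-Sen than in PMD-Sen (0.57).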

How the data were processed

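The authors sequenced paired-end libraries, and their processing notes name Trim Galore, HISAT2, HTSeq, featureCounts, DESeq2 and GRCh38. Versions, the annotation and strandedness were not given in the sources used here. The deposited signal values are, per gene symbol, the authors' averages of counts divided by DESeq2 size factors over the 4 libraries of a comparison. The authors' own results in the same tables (log2 fold changes, their errors, p-values) were left unused. The 52 files hold 25 distinct tables, with 0 further columns of per-sample values, and the 2 copies for Ca-Sen day 1 are identical.

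Such an average is a sum of whole reads, each worth a step fixed for its library. Steps were read from genes with 1 read. The whole reads of 22 libraries were then solved jointly from 10 tables that share the untreated libraries, and met the printed averages of all 59408 genes within rounding. PMD-Sen day 1 was solved where 1 solution existed, and for DDR-Sen day 1 only the average of its libraries was computed. A further row naming no gene was left out.

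Reads were divided by median-of-ratios size factors over 18 libraries. limma 3.58.1 in R 4.3.3 (trend, log2 of normalized count + 1) was fitted to the 18 libraries, or 20 with PMD-Sen, after tests on simulated data. It was adjusted by Benjamini-Hochberg over all genes tested, with calls at an adjusted p under 0.05. Errors after ± are its standard errors with n = 2 libraries a group. Whether these came from separate cultures beyond being independent samples is not stated. The p-values and errors use the spread between libraries of a group, pooled per gene over all groups fitted. They do not measure the spread of the compared groups alone, and the untreated libraries differed from each other more than those of day 1. Named genes were the 12 largest called rises and falls with a mean of at least 100 and no overlap (5 for day 0 and day 2), 3 per list and 10 fixed names. Members, lists and tests were chosen with earlier results of these data known. Promoters came from RefSeq (GRCh38.p14), and 10426 genes matched by symbol. Alternatives changed the pseudocount, filter, scaling, test, genes and libraries. Some genes that the rule names are not reported here.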

Additional observations from a re-analysis of the deposited data

How the results depend on the processing

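No named gene changed direction under any alternative run in a comparison in which it was called. Counts of called genes ranged, over pseudocounts of 0.5 and 5, other filters, library totals, limma voom and, for the first, only the 4 libraries, from 2593 to 3788 for day 1 against untreated (3535), 7772 to 10248 against day 0 (9537) and 1575 to 2095 for day 2 against day 1 (1965). A minimum change of 2-fold left 464, 3055 and 210. Leaving out 1 library gave 1706 to 2977, 8296 to 8488 and 709 to 1164, the lone sample being assumed to vary like the other groups. Library totals moved the share of higher genes among calls from 45.7% to 62.0% against untreated, and from 53.6% to 44.5% for day 2. Of 105 named genes called against untreated, 34 lost the call without some 1 library, as did 0 of 10 against day 0 and 5 of 10 for day 2. Over all alternatives, values of named genes kept their side of the threshold in 1326 cases and lost the call in 117, and counts of list members stayed within 1.5 times in 224, with 15 lower and 9 higher. Leaving out genes with replicates over 4-fold apart, chosen after seeing the data, gave 3620, 9539 and 2048. Depth limits low genes, since 3 reads are 4.54 and 5.53 normalized counts in the untreated libraries. No paired analysis was possible because the recovered libraries carry no replicate number.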
